A study of Mus musculus with 12 samples.

Results

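The transcripts described here belong to 10 genes of the Wnt pathway, from secreted ligands to target genes. They are Wnt5a, Wnt10b, Porcn, Sfrp1, Sfrp2, Apcdd1, Lrp6, Ctnnb1, Axin2 and Ccn5, and they were chosen by their role and with the expression differences of the SRA comparisons already known, out of 18194 genes that the arrays measured with a probe set of their own. Each gene is given by its lead probe set, selected on the highest mean value over all 12 arrays among the probe sets annotated to that symbol alone. The 10 genes had 26 such probe sets, of which 10 varied enough over the arrays to be tested, and 5 of the 10 lead probe sets were among these.

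Steroid receptor RNA activator (SRA) is an RNA coactivator of nuclear receptors. ST2 cells, a mouse bone marrow stromal line (strain label BC8), carried a pMSCV retrovirus with the human SRA isoform 2 cDNA or the empty pMSCV vector and were selected with puromycin. 3T3-L1 cells, a Swiss albino mouse fibroblast line of preadipocytes, carried the pSuperior vector with a single hairpin against mouse SRA (shSRA-2) or pSuperior-shcontrol, which the labels call empty vector. All 4 groups were differentiated with MDIT, which combines insulin at 0.167 µM, troglitazone at 5 µM, dexamethasone at 1 µM and methylisobutylxanthine at 0.5 mM. RNA came from ST2 adipocytes of day 4 and 3T3-L1 adipocytes of day 8, with 3 arrays per group that the labels call biological replicates. Nothing says whether these came from separate infections, so p-values measure the spread between cultures within groups. That spread is estimated jointly over the 4 groups and drawn toward that of all tested probe sets.

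Wnt proteins are lipid-modified signals. Porcupine, the enzyme encoded by Porcn, attaches the fatty acid that a Wnt needs for secretion and receptor binding, and the secreted Wnt then binds a Frizzled receptor together with the coreceptor Lrp6. The signal protects β-catenin (Ctnnb1) from destruction, and β-catenin switches on target genes such as Axin2, which itself limits the pathway. Secreted frizzled-related proteins (Sfrp1 and Sfrp2) and the membrane protein Apcdd1 hold the signal back outside the cell. In fat cell precursors canonical Wnt signaling, with Wnt10b as a well-known ligand, restrains adipogenesis, and its inhibitors favour it.

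The arrays showed the labelled knockdown and the adipocyte state, but not the overexpression itself. Sra1 fell by 2.36 on the log2 scale in shSRA adipocytes (adjusted p = 5.58e-07 from limma), while its mouse probe set differed by 0.22 (adjusted p = 0.484) in ST2 adipocytes, where whether it reads the human cDNA was not tested. The study reports overexpression of SRA RNA in ST2 cells after retroviral infection, as data not shown. All 11 measured adipocyte markers lay above the median level of all probe sets, and Fabp4 averaged 14.9 over the arrays. Array 2 of the ST2 control group read lower than the other arrays of its group by a median of 0.43 over 14314 bright probe sets, against deviations from -0.07 to 0.24 in the other arrays, and members' differences with overexpression are also given without it. Without this array the member calls with overexpression were the same 4 genes. Values are log2 expression values from robust multi-array average (RMA), and a level is compared only within a probe set, since probes differ in how brightly they report a transcript. The values carry no detection calls, so where a group reads low it is not known to stand above background, and a difference from it may be understated.

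Of the 10 members, 1 was higher and 3 were lower in SRA overexpressing than in control ST2 adipocytes at a Benjamini-Hochberg adjusted p of 0.05 over 19068 tested probe sets, where 7.98% of all tested probe sets were called, 2.33% as higher and 5.65% as lower. Over all genes by lead probe set, where an untested lead counts as not called as it does for the members, 4.36% were called. The higher gene was Porcn, and the lower genes were the inhibitors Sfrp2 and Apcdd1 and the Wnt target Ccn5. With knockdown of SRA in 3T3-L1 adipocytes none of the members was called, where 0.0734% of all tested probe sets and 0.044% of all genes by lead probe set were, although Sfrp2 and Apcdd1 had unadjusted p-values under 0.05 and differed in the direction opposite to that in ST2 adipocytes. Because the members were listed with these differences known, the counts are a description. Over the members the median log2 fold change was -0.11 with overexpression and 0.01 with knockdown, beside 0.06 and -0.01 over all 18194 genes by lead probe set. Arrays of culture wells are mixtures, so fewer cells of a type and less RNA per cell cannot be told apart in any of these values.

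**Figure D1:**
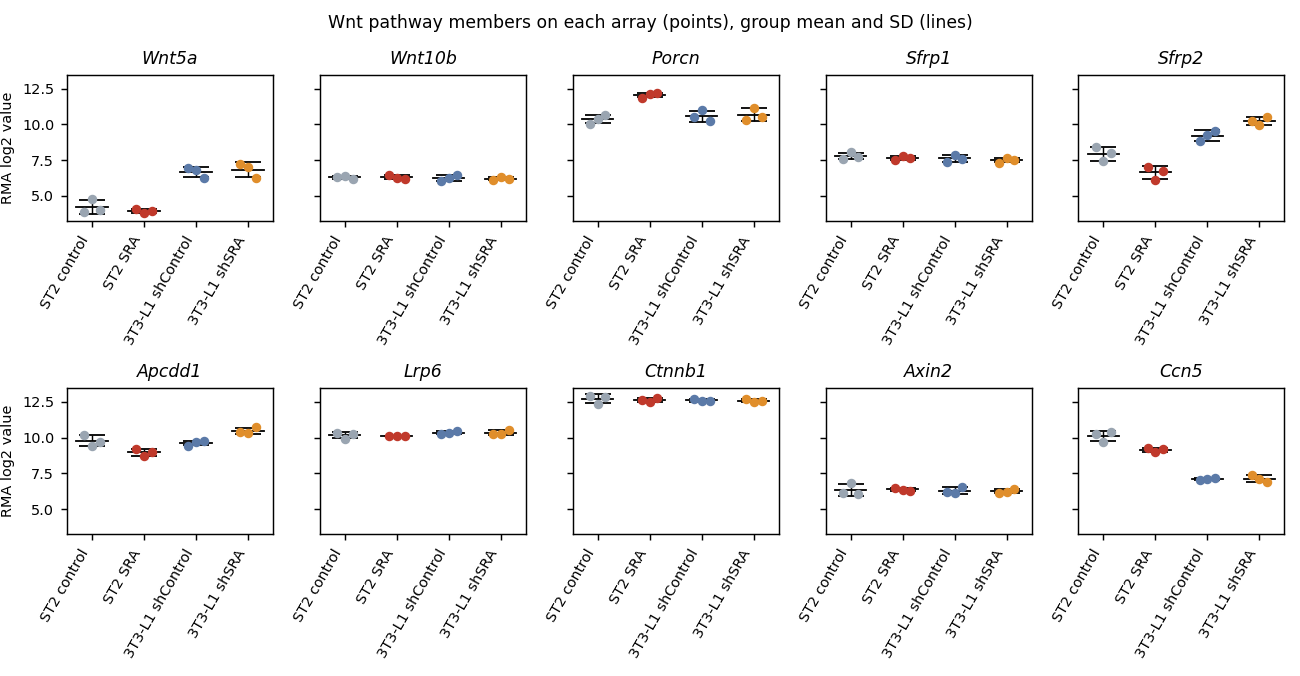
RMA log2 value (y axis) of the lead probe set of each of the 10 members on every array, with 3 points per group and lines for the group mean and SD. Porcn stands higher in SRA overexpressing ST2 adipocytes alone, and Sfrp2 and Apcdd1 step down with overexpression and up with knockdown. Wnt10b, Sfrp1, Ctnnb1 and Axin2 overlap between the 4 groups. Lrp6 overlaps within each line, and its SRA overexpressing ST2 arrays lie below all 3T3-L1 arrays.

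Wnt5a, a ligand known mainly for signals that do not run through β-catenin, separated the lines. Its log2 values were 3.85, 4.82 and 4.02 in control and 4.06, 3.79 and 3.92 in SRA overexpressing ST2 adipocytes. They were 6.97, 6.80 and 6.25 in shControl and 7.22, 7.04 and 6.24 in shSRA 3T3-L1 adipocytes. Every 3T3-L1 array was above every ST2 array, while the groups within each line overlapped. The log2 fold change was -0.30 with overexpression (95% interval -0.84 to 0.23, adjusted p = 0.508 from limma) and 0.16 with knockdown (95% interval -0.38 to 0.70, adjusted p = 1). Without array 2 of the ST2 control group the first of these was -0.01. Control 3T3-L1 adipocytes exceeded control ST2 adipocytes by 2.44 (standard error 0.258, adjusted p = 1.37e-07), the ST2 values being among those not known to stand above background.

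Of the 4 probe sets of Wnt5a, another tested probe set (1448818_at) had a smaller difference between the control groups, 1.00 (adjusted p = 0.00186). The remaining 2 probe sets varied too little to be tested. They read 0.13 and 0.43 higher in the control 3T3-L1 arrays, without overlap. With overexpression 1448818_at, 1456976_at and 1437673_at read 0.05, 0.13 and 0.28 higher, where the lead probe set read lower. Only 1437673_at did so without overlap.

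Wnt10b, the canonical ligand best known for restraining adipogenesis, had 1 probe set with values between 6.07 and 6.49 on all arrays. The ST2 groups averaged 6.29 ± 0.089 without and 6.32 ± 0.14 with SRA, and the 3T3-L1 groups averaged 6.27 ± 0.21 with the control hairpin and 6.22 ± 0.10 with the SRA hairpin (SD, n = 3 each). The 4 groups overlapped. Its variance of 0.0161 was under the filter, so no p is given, and at this level it is not known to stand above background. Without array 2 of the ST2 control group its log2 fold change with overexpression was 0.06, against 0.02 with all arrays.

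Porcn showed the largest rise among the members. Its log2 values were 10.04, 10.39 and 10.62 in control ST2 adipocytes and 11.86, 12.13 and 12.16 with SRA, so that the lowest array with SRA stood more than a log2 unit above the highest control array. The log2 fold change was 1.70 (standard error 0.226, adjusted p = 5.34e-05 from limma), a 3.26-fold rise. In 3T3-L1 adipocytes the values were 10.50, 10.99 and 10.23 in shControl and 10.31, 11.17 and 10.50 in shSRA. These groups overlapped, and the difference was 0.09 (95% interval -0.38 to 0.56, adjusted p = 1). Control ST2 and control 3T3-L1 adipocytes overlapped as well, with a difference of 0.22 (adjusted p = 0.379).

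The effect of more SRA on Porcn differed between the lines by 1.79 (standard error 0.32, adjusted p = 0.00245), where 3.69% of all tested probe sets and 2.02% of all genes by lead probe set were called in this comparison of effects. The effect of more SRA is SRA minus control in ST2 and shControl minus shSRA in 3T3-L1 adipocytes. Overexpression and hairpin are different interventions in different lines at different days, which cannot be told apart in this difference. The Porcn calls held with each of the 12 arrays left out in turn, with a log2 fold change between 1.55 and 1.84 with overexpression and of 1.72 without array 2 of the ST2 control group.

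Sfrp2, a secreted inhibitor that binds Wnt proteins, fell with SRA overexpression and read higher with knockdown. In ST2 adipocytes its log2 values were 8.40, 7.41 and 7.99 in control and 7.05, 6.13 and 6.76 with SRA. All 3 arrays with SRA were below the lowest control array. The log2 fold change of -1.29 (adjusted p = 0.00268 from limma, standard error 0.257) is a 2.44-fold fall. Without array 2 of the ST2 control group the log2 fold change was -1.55 (adjusted p = 0.00181).

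In 3T3-L1 adipocytes Sfrp2 had log2 values of 8.82, 9.27 and 9.56 in shControl and 10.23, 9.94 and 10.48 in shSRA. All shSRA arrays were above all shControl arrays. The difference of 1.00 (standard error 0.257, 95% interval 0.47 to 1.54) had an unadjusted p = 0.000908 and an adjusted p = 0.323 from limma. Same-numbered arrays deviated together in the 3T3-L1 groups, and once the replicate number entered as a block in each line, the adjusted p was 0.000552. With the block in the 3T3-L1 arrays alone it was 0.2.

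Apcdd1, a membrane protein that binds Wnt and Lrp proteins and inhibits the signal, also fell with overexpression and read higher with knockdown. Its lead probe set (1449070_x_at) had log2 values of 10.20, 9.43 and 9.69 in control and 9.18, 8.72 and 9.01 in SRA overexpressing ST2 adipocytes. The groups did not overlap, with a log2 fold change of -0.80 (adjusted p = 0.0123 from limma, standard error 0.194), a 1.74-fold fall. This call was lost without array 1 of the ST2 control group (-0.59, adjusted p = 0.0543) and without array 2 of the ST2 SRA group (-0.68, adjusted p = 0.101), and it held without array 2 of the ST2 control group (-0.97, adjusted p = 0.00314). Where all 6 probe sets of the gene were averaged the log2 fold change was -0.44 (adjusted p = 0.0657).

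In 3T3-L1 adipocytes Apcdd1 had 9.45, 9.73 and 9.74 in shControl and 10.39, 10.35 and 10.71 in shSRA. Every shSRA array exceeded every shControl array. The difference of 0.84 (standard error 0.194, 95% interval 0.44 to 1.25) had an adjusted p = 0.203 from limma. With the replicate block in each line the adjusted p was 0.00246, and with the block in the 3T3-L1 arrays alone it was 0.134.

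Under the replicate block in each line the knockdown therefore called 2 members, Sfrp2 and Apcdd1, where 0.53% of all tested probe sets were called. Under the block in the 3T3-L1 arrays alone it called none, where 0.105% of all tested probe sets were. The spread is estimated jointly from both lines, and in the ST2 arrays the same-numbered arrays correlated at 0.04, 0.27 and 0.53, which did not meet the rule for pairing. The study's methods describe a call that accounts for the same comparison in the other line. By limma's nested F classification, which does this and judges a probe set that is large in the overexpression comparison more easily in the knockdown, 2 members were called as higher with knockdown, where 0.472% of all tested probe sets were called.

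Of the other 5 probe sets of Apcdd1, 3 were tested, with log2 fold changes of -0.65 (1418382_at, adjusted p = 0.0488), -0.58 (1454822_x_at, adjusted p = 0.0534, not called) and -0.78 (1418383_at, adjusted p = 0.0312) with overexpression. With knockdown these 3 read 0.82, 0.74 and 0.90 higher, with adjusted p of 0.254, 0.254 and 0.27. The last 2 were nearly flat over the arrays and were not tested. They differed from the lead probe set by over 0.5, with log2 fold changes of 0.12 (1437604_x_at) and 0.04 (1443639_at) with overexpression. The last of them read between 4.28 and 4.73 on all arrays.

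**Figure D2:**
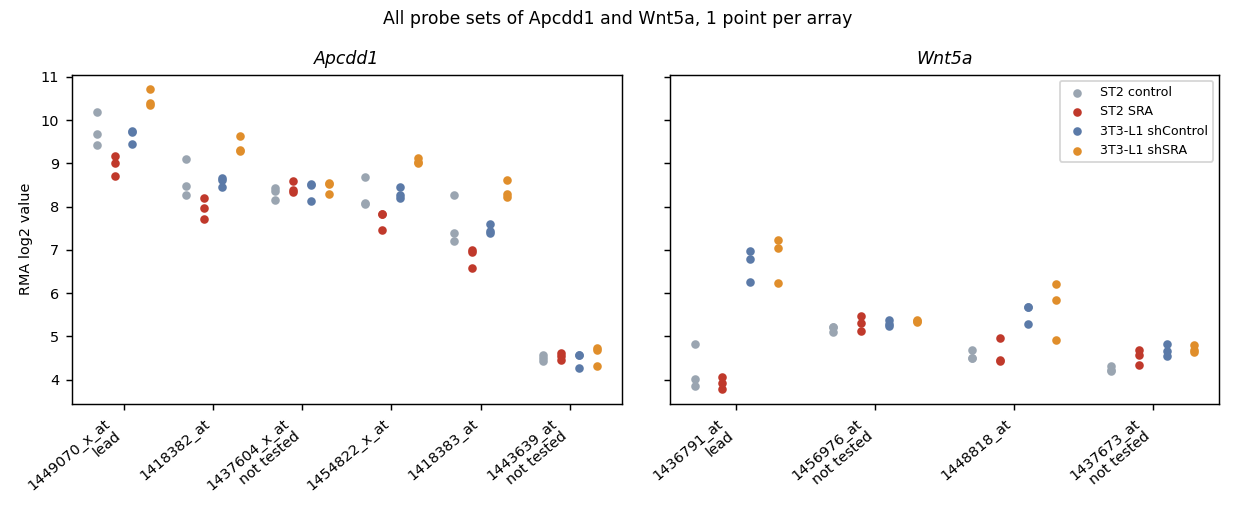
RMA log2 value (y axis) of each probe set of Apcdd1 (left) and Wnt5a (right) on every array, 1 point per array, coloured by group. In Apcdd1 the 4 tested probe sets step down with overexpression and up with knockdown, and the 2 untested ones are flat. In Wnt5a the separation of the lines is widest in the lead probe set.

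The other secreted inhibitor, Sfrp1, had 5 probe sets, none of which varied enough to be tested. Its lead probe set lay between 7.33 and 8.04 on all arrays. The log2 fold change was -0.15 with overexpression, or -0.02 without array 2 of the ST2 control group, and -0.11 with knockdown. Over the remaining 4 probe sets the values ran from 0.03 to 0.08 and from -0.07 to 0.11. The 4 groups overlapped in each of them. For Sfrp2 the corresponding differences were -1.29 and 1.00, so the pair of frizzled-related proteins read differently on these arrays, without a test of that contrast.

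Lrp6, the coreceptor that carries the canonical signal across the membrane, had log2 values between 9.93 and 10.56 on all arrays. The differences were -0.04 with overexpression, or -0.16 without array 2 of the ST2 control group, and 0.01 with knockdown, untested. Its other probe set (1451022_at) passed the filter and had a log2 fold change of 0.23 with overexpression (adjusted p = 0.428 from limma) and of -0.05 with knockdown (adjusted p = 1).

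Ctnnb1 encodes β-catenin, whose activity is set mainly by the stability of the protein, which arrays do not measure. The lead probe set read between 12.37 and 12.89 on all arrays, and its lowest value was that of array 2 of the ST2 control group. Its log2 fold change was -0.08 with overexpression and -0.02 with knockdown. Without that array the first of these was -0.25. The other 2 probe sets differed by at most 0.04 in either comparison.

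Axin2, the most widely used readout of canonical Wnt signaling, read between 6.06 and 6.82 in its lead probe set. The highest value was that of array 2 of the ST2 control group, whose other arrays read 6.11 and 6.06. Its log2 fold change was 0.06 with overexpression and -0.03 with knockdown. Without array 2 of the ST2 control group the first of these was 0.30, and the remaining control arrays lay below all 3 arrays with SRA, at 6.51, 6.34 and 6.31. The other probe set had 0.17 and -0.04, also untested. Like Wnt10b, Axin2 is not known to stand above background at this level. When all probe sets were tested with no variance filter, the adjusted p of the lead probe set of Axin2 with overexpression was 0.92, and those of Sfrp1, Wnt10b, Ctnnb1 and Lrp6 ranged from 0.728 to 0.958. With knockdown all 5 were at 1. A p that misses the threshold does not show that these transcripts were the same in both groups.

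Ccn5, also called Wisp2, encodes a secreted matricellular protein of mesenchymal cells and is a known Wnt target. Its log2 values were 10.28, 9.70 and 10.36 in control and 9.26, 8.99 and 9.19 in SRA overexpressing ST2 adipocytes. The groups did not overlap. Its log2 fold change was -0.97 (adjusted p = 0.00174 from limma, standard error 0.185), a 1.96-fold fall, and -1.17 without array 2 of the ST2 control group (adjusted p = 0.000202).

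In 3T3-L1 adipocytes Ccn5 was far lower, with 7.05, 7.11 and 7.16 in shControl and 7.39, 7.08 and 6.89 in shSRA. These groups overlapped, and the difference was 0.01 (95% interval -0.37 to 0.40, adjusted p = 1). The log2 difference of control 3T3-L1 minus control ST2 adipocytes was -3.01 (adjusted p = 4e-11). The effect of more SRA differed between the lines by -0.96 (standard error 0.261, adjusted p = 0.046), and this call held in 2 of the 12 fits that left out 1 array, with adjusted p from 0.00309 to 0.15. Ccn5 is not known to stand above background in 3T3-L1 adipocytes.

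**Figure D3:**
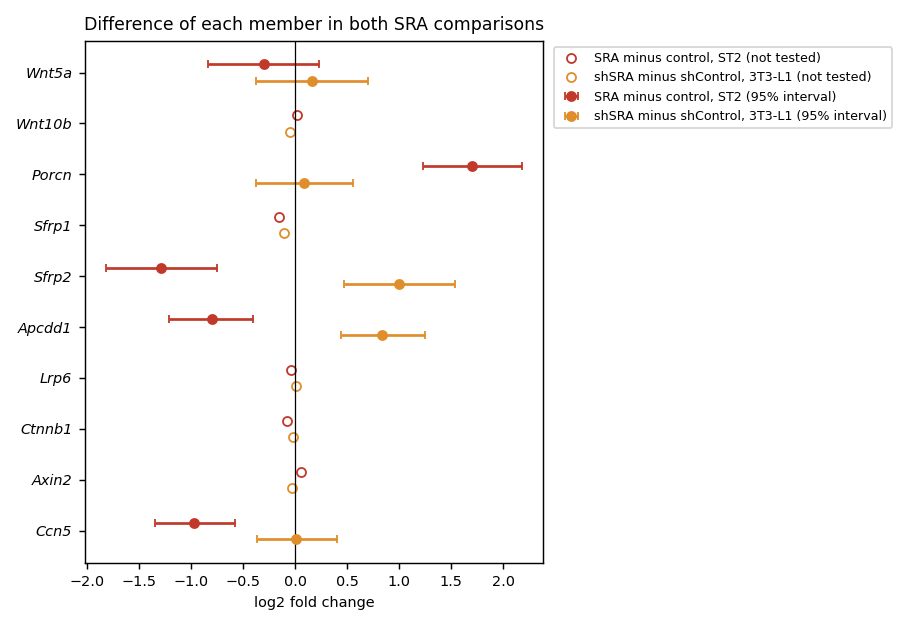
Log2 fold change (x axis) of the lead probe set of each member with SRA overexpression in ST2 and with knockdown in 3T3-L1 adipocytes. Filled points carry limma's 95% interval and open points are probe sets that were not tested; Sfrp2 and Apcdd1 lie on opposite sides of 0 in the pair of comparisons, and Porcn and Ccn5 lie away from 0 with overexpression alone.

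Across both SRA comparisons, the arrays of the groups did not overlap for 4 of the 10 lead probe sets with overexpression, where 19.3% of all genes by lead probe set had no overlap, and for 2 with knockdown, where 9.45% had none. These comparisons share no arrays. Between the control groups 3 members did not overlap, where 37.4% of all genes by lead probe set had no overlap. By the test, Sfrp2 and Wnt5a were higher and Ccn5 was lower in control 3T3-L1 adipocytes, 3 of the 10 members and of the 5 tested ones. Of all genes by lead probe set 30.1% were called there, and of all tested probe sets 63.6%. The difference of Sfrp2 was 1.28 (adjusted p = 0.00031). Cell line, strain, day of culture and viral vector differ together in this comparison and cannot be told apart. Porcn and Apcdd1, at 0.22 and -0.13, were not called there, with adjusted p of 0.379 and 0.537.

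Of 97 further genes of the pathway listed by role, 95 were measured with a probe set of their own and 39 of these were tested. SRA overexpression called 0 of them as higher and 6 as lower, and knockdown called 1, as lower, where 4.36% and 0.044% of all genes by lead probe set were called. Without array 2 of the ST2 control group Ptk7 was called as lower as well, 7 in all. At an unadjusted p under 0.05 the counts were 0 higher and 7 lower with overexpression, and 2 higher and 3 lower with knockdown, where 11.2% and 1.37% of all genes had such a p. By limma's nested F classification they were again 6 and 1, where 2.91% and 0.264% of all genes were called. The median log2 fold change over the 95 genes was 0.02 and -0.01, beside 0.06 and -0.01 over all genes.

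**Figure D4:**
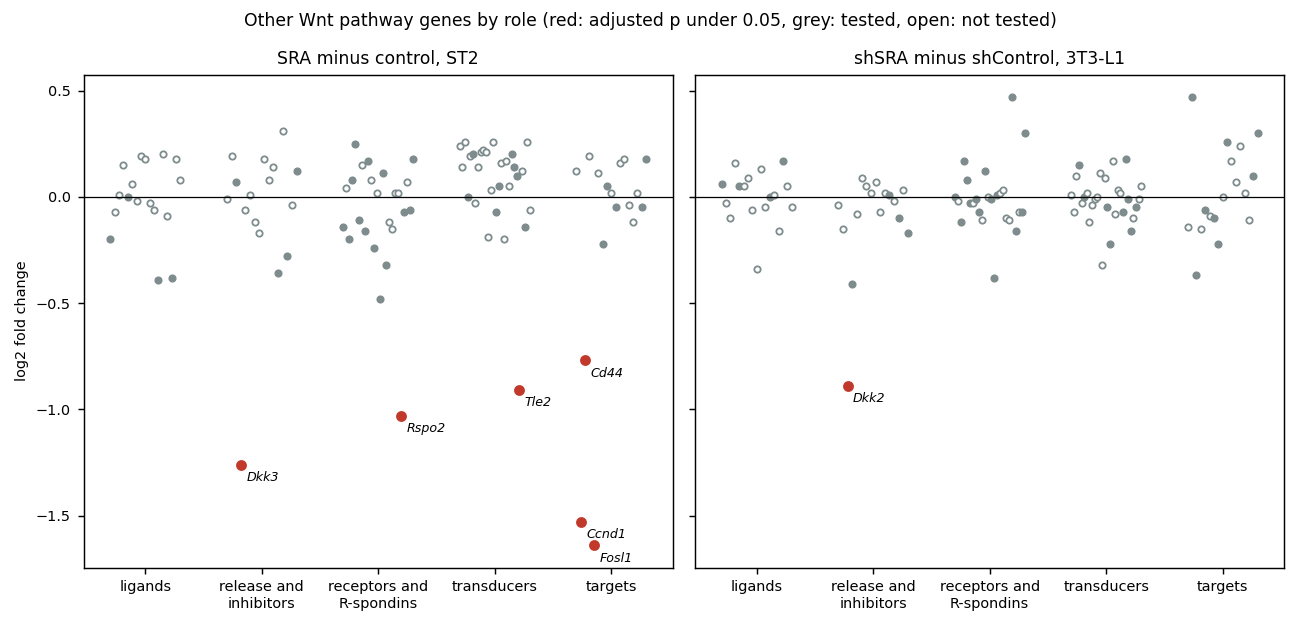
Log2 fold change (y axis) of the 95 further Wnt pathway genes by role, with overexpression (left) and knockdown (right), 1 point per gene; a gene with 2 roles is drawn in both. Red points passed limma's test at an adjusted p of 0.05, grey points were tested and open points were not; 6 red points on the left and 1 on the right lie below the rest.

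Of the 17 further Wnt ligands 4 were tested, and none was called in either comparison. Over all 17 the log2 fold changes ran from -0.39 to 0.20 with overexpression and from -0.34 to 0.17 with knockdown. Without array 2 of the ST2 control group the first range was -0.09 to 0.25. Wnt7a, Wnt7b and Wnt4, named for their mean probe set values, had log2 fold changes with overexpression of -0.39 (adjusted p = 0.328), 0.20 and 0.18, the last 2 untested. Wnt7a read 9.06 on array 2 of the ST2 control group and 7.82 and 8.00 on the others, and without that array its log2 fold change was -0.01. Wnt5a, which was tested, and Wnt10b, which was not, were not called either. Most of the measured ligands were untested and could not be called in either comparison.

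Among the 16 measured genes of Wnt release and secreted inhibition 5 were tested, and overexpression lowered Dkk3 and knockdown lowered Dkk2. Dkk3, a member of the Dickkopf family, had 9.65, 8.89 and 9.37 in control and 8.28, 7.78 and 8.07 in SRA overexpressing ST2 adipocytes, a fall of 1.26 on the log2 scale (adjusted p = 0.000216 from limma). Its arrays did not overlap. In 3T3-L1 adipocytes, where its values were between 5.40 and 6.01, the difference was -0.41 (unadjusted p = 0.046 from limma, adjusted p = 1). These groups did not overlap either, and at this level Dkk3 is not known to stand above background. Dkk2, a secreted ligand of Lrp6 that modulates Wnt signaling, had 5.63, 5.78 and 5.37 in shControl and 4.74, 4.60 and 4.79 in shSRA adipocytes. At this level Dkk2 is not known to stand above background. Its fall of 0.89 had an adjusted p = 0.0472, or 0.00198 with the replicate block in each line and 0.0531 with the block in the 3T3-L1 arrays alone, and the call held in 3 of the 12 fits that left out 1 array. Wls, the carrier that takes lipid-modified Wnts to the cell surface after Porcn has acted, had differences of 0.12 (adjusted p = 0.741) and -0.17 (adjusted p = 1). Between the control groups Wls was 3.12 higher in 3T3-L1 adipocytes (adjusted p = 5.65e-11). Trabd2b, an inhibitory protease, and Sfrp4 were not called either, at -0.28 and 0.08 with overexpression.

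Of 24 receptors and R-spondin genes 15 were tested, and Rspo2 alone was called. Rspo2 is a secreted protein that strengthens Wnt signals by keeping receptors on the cell surface. It had 11.61, 11.04 and 11.47 in control and 10.64, 9.97 and 10.44 in SRA overexpressing ST2 adipocytes, a fall of 1.03 (adjusted p = 0.00159 from limma) with no overlap. In 3T3-L1 adipocytes its values were 4.68 to 5.49, not known to stand above background. There Rspo2 read 0.47 higher with knockdown (unadjusted p = 0.0239 from limma), without overlap, and was not called. The log2 difference of control 3T3-L1 minus control ST2 adipocytes was -6.45, which may be understated at this level. The receptors Ryk, Fzd1 and Lgr4, named by the same rule, had log2 fold changes of -0.06, -0.14 and -0.24 with overexpression, and none was called. Leaving out array 2 of the ST2 control group gave -0.20, -0.30 and -0.31.

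Of 28 measured signal transducers 9 were tested, and the corepressor Tle2 was called. It fell by 0.91 with overexpression (adjusted p = 0.00325 from limma), from 8.32, 7.59 and 8.42 to 7.31, 7.14 and 7.14. With knockdown Tle2 differed by -0.16 without overlap (unadjusted p = 0.391 from limma) and was not called. Tnks2, Csnk1a1 and Csnk1d, named by the same rule, varied too little to be tested and had log2 fold changes of -0.06, -0.03 and 0.14 with overexpression. Leaving out array 2 of the ST2 control group gave -0.19, -0.19 and -0.04.

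Of 17 measured target genes 8 were tested, and Fosl1, Ccnd1 and Cd44 fell with overexpression. Fosl1, an AP-1 transcription factor, had 10.38, 9.77 and 10.49 in control and 8.40, 8.41 and 8.91 with SRA, a fall of 1.64 (adjusted p = 1.97e-05 from limma). Ccnd1, which encodes cyclin D1 of the G1 phase, fell by 1.53 (adjusted p = 8.94e-05), from 11.35, 10.83 and 11.22 to 9.76, 9.31 and 9.75. Cd44, a hyaluronan receptor, fell by 0.77 (adjusted p = 0.0104), a call lost without array 1 (adjusted p = 0.0547) or array 2 (adjusted p = 0.0761) of the ST2 SRA group. With knockdown these 3 had differences of -0.06, 0.47 and -0.37, each with an adjusted p of 1. The unadjusted p from limma was 0.0386 for Ccnd1, whose groups overlapped, and 0.055 for Cd44, whose groups did not. Vegfa, Ppard and Jun, named by the same rule, were not called and had -0.05, -0.04 and -0.22 with overexpression, or -0.12, -0.18 and -0.51 without array 2 of the ST2 control group. These targets also answer to signals other than Wnt.

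Markers of other cell states moved along with the overexpression results. Of 9 markers of dividing cells 8 were lower with SRA, with a median log2 fold change of -1.82, and the mean level of the list ran from 8.58 to 9.41 over the control and from 7.01 to 7.67 over the SRA arrays. Of 13 preadipocyte and fibroblast markers, 12 of them tested, 6 were lower (median -0.38, list means 9.68 to 9.94 against 9.01 to 9.29). Of 11 adipocyte markers, 8 of them tested, 3 were higher (median 0.41, list means 12.41 to 12.89 against 13.08 to 13.20). Over all 18194 genes by lead probe set, 562 were called as lower and 232 as higher. Of 5 osteoblast, 7 macrophage and blood cell and 6 endothelial markers, 2, 3 and 0 were tested, and none was called. No call was possible for the endothelial markers, which averaged from 4.45 (Vwf) to 6.62 (Kdr). The part of these states in the differences of Porcn, Sfrp2, Apcdd1, Ccn5 and the other lower genes was not tested.

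With knockdown the marker lists lay closer together. No marker of dividing cells was called (median 0.22, list means 6.52 to 6.64 in shControl and 6.73 to 6.96 in shSRA). Mki67, Top2a and Mcm5 read 0.70, 0.57 and 0.48 higher without overlap. Their unadjusted p from limma were 0.00872, 0.0339 and 0.0327, and no marker of this list read lower at such a p. The nested F classification called Mki67 as higher, where 0.264% of all genes by lead probe set were called. Of 13 preadipocyte and fibroblast markers 1, Lum, was lower (median -0.21, list means 10.96 to 11.24 against 10.83 to 10.95). The nested F classification called Lum as lower and S100a4 as higher (0.81, unadjusted p = 0.00494 from limma). Pdgfra, Dcn and Fn1 read lower at an unadjusted p under 0.05. No adipocyte marker was called (median 0.05, list means 13.75 to 13.91 against 13.83 to 13.94). With knockdown 0.044% of all genes by lead probe set were called. The list means of the dividing cell markers and of the preadipocyte and fibroblast markers did not overlap between the groups, and their part in the Sfrp2 and Apcdd1 differences was not tested.

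**Figure D5:**
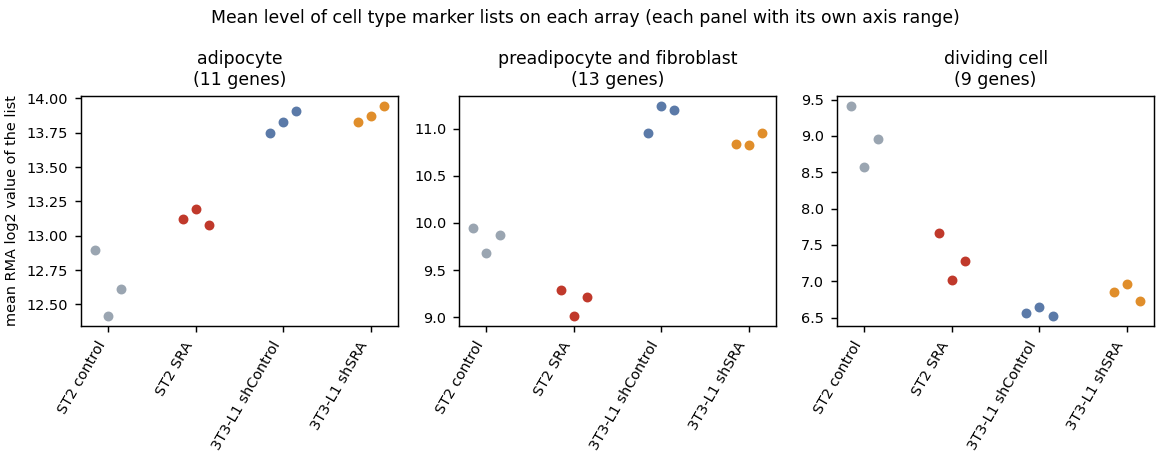
Mean RMA log2 value (y axis, each panel with its own range) of the adipocyte, preadipocyte and fibroblast, and dividing cell marker lists on every array, 1 point per array. The dividing cell list lies between 8.58 and 9.41 in control and between 7.01 and 7.67 in SRA overexpressing ST2 adipocytes, and the adipocyte list stands above 12 on every array.

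For each tested member, the genes with the most similar pattern over the 12 arrays were taken from 8190 genes by Pearson's r. For Sfrp2 they were Ifi27l2a (r = 0.97) and Cp (r = 0.963), for Apcdd1 Tacc1 (r = 0.934) and Tspan4 (r = 0.906), and for Porcn Coq8b (r = 0.965) and Fkbp2 (r = 0.933). For Wnt5a and Ccn5, whose patterns are mostly the step between the lines, they were A030001D20Rik (r = 0.993) and Sucnr1 (r = 0.989), and Ramp2 (r = 0.996) and Ecm1 (r = 0.996). The 12 points share the 4 groups, so these values describe group patterns.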

How the data were processed

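The authors hybridised RNA of each sample to an Affymetrix mouse genome array and deposited log2 expression values made by robust multi-array average (RMA), which corrects background, normalizes all arrays to 1 distribution and summarizes each probe set; the sources used here do not name software versions for this step. The analysis started from these values and used limma 3.58.1 in R 4.3.3. Probe sets whose variance exceeded 0.05 over the 12 arrays (19068 of 45101) were fitted in 1 linear model of the 4 groups, which share an estimate of spread, and p-values were adjusted by Benjamini-Hochberg over all of them in each comparison and called at 0.05. The study's methods give the filter, the linear model and the adjustment. They also describe accounting for the same comparison in the other line, so the main calls here, which test each comparison alone, are not the study's procedure; limma's nested F classification, an alternative here, comes closer to it. A gene whose lead probe set failed the filter counts as not called. The number of arrays limits the precision. The steps were tested on simulated arrays.

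Genes were named through the platform annotation: 34958 probe sets had 1 symbol, 932 had several and 9211 had none in the table. The members and lists were chosen with earlier results of these data known. Named genes are every member, every listed Wnt gene called in either SRA comparison, up to 3 uncalled genes per list by the highest mean probe set value, Sra1, and the 2 nearest patterns per tested member. The list means of the markers average log2 values.

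Pairing was checked by correlating deviations from the group means between same-numbered arrays. In 3T3-L1 adipocytes r was 0.59, 0.59 and 0.38, above 0.1 in every pair, so blocked values stand beside the knockdown results. In ST2 adipocytes it was 0.04, 0.27 and 0.53, which did not meet this rule and leaves pairing there undecided. Alternatives were other filters, scalings, array weights, probe set choices, a separate fit per line, the block and each array left out, and a block in 3T3-L1 alone was added after seeing the data.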

Additional observations from a re-analysis of the deposited data

Results flagged for a closer look

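In 6 of the genes described, the effect of more SRA differed between the lines by the test of the difference itself (limma, adjusted over 19068 probe sets). These are 2 of the 10 members and 4 of the 95 further Wnt genes. Of all genes by lead probe set 2.02% were called, and of all tested probe sets 3.69%. The further genes were taken from those called in an SRA comparison, which enters this contrast, so the counts are a description. The effect in ST2 minus that in 3T3-L1 adipocytes was 1.79 for Porcn (adjusted p = 0.00245), -0.96 for Ccn5 (adjusted p = 0.046), -1.67 for Dkk3 (adjusted p = 0.00103), -1.08 for Tle2 (adjusted p = 0.0244), -1.14 for Cd44 (adjusted p = 0.0146) and -1.70 for Fosl1 (adjusted p = 0.00119). With each of the 12 arrays left out in turn, the calls of Porcn, Dkk3 and Fosl1 held in all 12 fits, that of Cd44 in 11 (lost without ST2 SRA replicate 2, adjusted p up to 0.0604), that of Tle2 in 4 (adjusted p up to 0.0794) and that of Ccn5 in 2 (adjusted p up to 0.15). Groups of 3 arrays were not searched for outlying samples.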

How the results depend on the processing

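With overexpression 4 members were called, and between 3 and 4 under every alternative and with each array left out, the loss being Apcdd1. Between the control lines 3 members were called, or 2 with a filter on level that removes Wnt5a. With knockdown 0 members were called, 2 with the replicate block within each line or by the nested F classification and 1 with array weights, whose estimate stopped before it converged, and 0 without any single array. With the replicate block no call of a member with overexpression changed. Of the other Wnt genes 6 were called with overexpression, 15 with the same array weights (3 higher, 12 lower) and from 5 to 7 with an array left out. With knockdown 1 was called, and 0 without the variance filter, with the level filter, after a second quantile normalization, after centring on bright probe sets, in a separate fit of each line, with the replicate block in 3T3-L1 alone, and from 0 to 1 with an array left out; in each of these the gene was Dkk2, which the level filter removed. The difference between the lines called 2 members, 1 without the variance filter or with the block in 3T3-L1 alone, and from 1 to 2 with an array left out, Ccn5 being lost each time. The cause of these shifts was not tested. No log2 fold change of a called gene changed sign. The values carry no signal over background, which limits what can be said of low probe sets.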
